A study of Mus musculus with 8 samples.

Results

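Transcription factors that divide the mouse blastocyst into its lineages were examined as 9 loci for the histone mark H3K27me3 in morulae, the stage before the blastocyst. The loci were 3 factors of the epiblast and of pluripotency (Pou5f1, Nanog and Sox2), 4 of the trophectoderm (Cdx2, Gata3, Eomes and Tfap2c) and 2 of the primitive endoderm (Gata6 and Gata4). Members were chosen by name, with an mm9 interval fixed for each gene to the nearest kb, and a peak counted for a locus when it touched that interval or the 20 kb on either side. Of 90158 peaks in the Kdm6bMUT list 3 did so, and of 4991 in the Kdm6bWT list 2 did.

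The series holds 8 samples, of which the 2 morula ChIP libraries are used here, each with its peaks called against an input library. Zygotes were injected with mRNA for Kdm6b (Kdm6bWT), an enzyme that erases this mark, or for a mutant form (Kdm6bMUT). The mRNA was given at 1.8 µg/µl, from 2.5 hours after fertilization and by 4 hours. Both groups were in vitro fertilized embryos labelled BDF1xPWK, with oocytes from BDF1 females aged 8 weeks, and both were profiled by ultra-low-input native ChIP-seq of whole embryos, so inner and outer cells were not separated. Each group is 1 library, so no value below has a replicate, the groups were not tested against each other, and every difference is between these libraries. How many morulae entered each library is not given in the sources used here, the nature of the mutation is not stated in the labels, and the input samples carry a tag for no injection although their titles name the injections. Read depth is unknown, and a peak list grows with depth, so a missing peak means that none was called at this depth.

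H3K27me3 is laid down by Polycomb repressive complex 2 and is known for marking promoters of developmental regulators that are silent, in particular promoters dense in CG dinucleotides. In the cleavage-stage mouse embryo the mark is also carried in broad domains inherited from the oocyte. Pou5f1 (Oct4), Nanog and Sox2 form the core network of pluripotent cells. Cdx2, Gata3, Eomes and Tfap2c promote trophectoderm, the source of the placenta, and Gata6 and Gata4 promote primitive endoderm, the source of the yolk sac.

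The promoters of the genes differ widely in CG content, and 3 of them are printed here because they span the range from CG-dense to CG-poor among loci that had no Kdm6bMUT peak. RefSeq (GRCm38.p6) lists a promoter for 6 of the 9 genes, and the sequences were matched by symbol. Each run below is the 250 bases before the listed transcription start, 5′ to 3′ on the gene's strand, with every CG in capitals. Pou5f1 and Nanog have 2 listed starts each, and the most upstream was used, so their CG counts hold for that start alone. The motif searched was CG, which reads the same on both strands. The positions are in GRCm38.p6 and were not carried over to the mm9 peaks.
Sox2 (chr3:34649745-34649994, plus strand): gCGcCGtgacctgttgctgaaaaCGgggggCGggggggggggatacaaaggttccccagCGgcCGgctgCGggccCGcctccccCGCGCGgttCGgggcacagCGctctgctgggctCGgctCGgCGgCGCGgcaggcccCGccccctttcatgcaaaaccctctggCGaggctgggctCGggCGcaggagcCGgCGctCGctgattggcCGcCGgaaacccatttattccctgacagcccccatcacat
Cdx2 (chr5:147307250-147307499, minus strand): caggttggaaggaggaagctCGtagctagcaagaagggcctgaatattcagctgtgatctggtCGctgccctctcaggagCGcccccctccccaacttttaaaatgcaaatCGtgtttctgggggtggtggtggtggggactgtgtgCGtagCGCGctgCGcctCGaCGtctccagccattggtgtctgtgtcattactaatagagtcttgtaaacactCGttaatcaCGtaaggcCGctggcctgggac
Nanog (chr6:122707239-122707488, plus strand): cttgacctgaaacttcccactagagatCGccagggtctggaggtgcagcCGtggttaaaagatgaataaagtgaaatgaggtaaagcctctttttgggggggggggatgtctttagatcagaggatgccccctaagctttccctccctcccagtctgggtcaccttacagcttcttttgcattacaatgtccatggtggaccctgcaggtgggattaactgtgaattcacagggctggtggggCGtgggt

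The Sox2 run holds 27 CG, a number reached by 8.56% of the 32851 promoters in the table. The Cdx2 run holds 13 CG, reached by 31.5% of promoters, and the Nanog run holds 3, reached by 71.0%. Among the promoters not printed, Gata3 has 19 CG (19.7% of promoters have as many), and Pou5f1 and Eomes have 8 each (43.0%). The median over the table is 6 CG. None of these 6 loci had a Kdm6bMUT peak in the locus or its 20 kb flanks, while 38.5% of 50 kb tiles of the genome were touched by one, so most tiles had none either. Gata4, the locus with peaks, has no promoter in the table, and a relation of CG content to peaks was not tested.

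In Kdm6bMUT-injected morulae 8 of the 9 lineage factor loci had no H3K27me3 peak within 20 kb. Gata4 was the exception, with 3 peaks. The share of loci with a peak was 11.1% (1 of 9, 95% exact interval 0.281% to 48.2%), whereas 38.5% of all 50 kb tiles of the autosomes and X were touched by a Kdm6bMUT peak. That background lies inside the interval, so 9 loci are too few to set them apart from the genome by this count. The 9 windows were 44 to 114 kb wide, and among tiles of those widths 37.3% to 49.2% were touched. The median window had a coverage of 0%, and the median 50 kb tile also had 0 bases covered. By lineage the count was 0 of 3 epiblast, 0 of 4 trophectoderm and 1 of 2 primitive endoderm loci. Kdm6bMUT peaks covered 11563 bases of the 9 windows, or 2.12% of their 545 kb, all of it at Gata4. The autosomes and X together were covered to 9.77%.

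In Kdm6bWT-injected morulae 7 of the 9 loci had no peak within 20 kb. Pou5f1 and Gata4 had 1 peak each, of 305 and 300 bases, and no Kdm6bWT peak lay inside any of the 9 loci. The share was 22.2% (2 of 9, exact interval 2.81% to 60.0%), and 8.62% of 50 kb tiles were touched by a Kdm6bWT peak, which also lies inside the interval. Together these peaks covered 605 bases, 0.111% of the windows, against 0.137% of the autosomes and X. By lineage, 1 of 3 epiblast, 0 of 4 trophectoderm and 1 of 2 primitive endoderm loci had a Kdm6bWT peak. The 7 loci without a peak in either list were Nanog, Sox2, Cdx2, Gata3, Eomes, Tfap2c and Gata6. Of all tiles as wide as the narrowest and the widest window, 7.67% and 17.4% were touched by a Kdm6bWT peak.

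At the end of the locus where transcription starts, 0 of the 6 loci with a listed strand had a peak within 2 kb in either list. Of 4 kb tiles, 19.9% were touched by a Kdm6bMUT peak and 0.898% by a Kdm6bWT peak. For Tfap2c, Gata6 and Gata4, which have no start in the promoter table, both ends were searched, and the sole peak was the Kdm6bMUT peak at Gata4. The loci are known to about 1 kb, and the start listed for Gata3 lies inside its locus, so these counts are coarse.

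**Figure D1:**
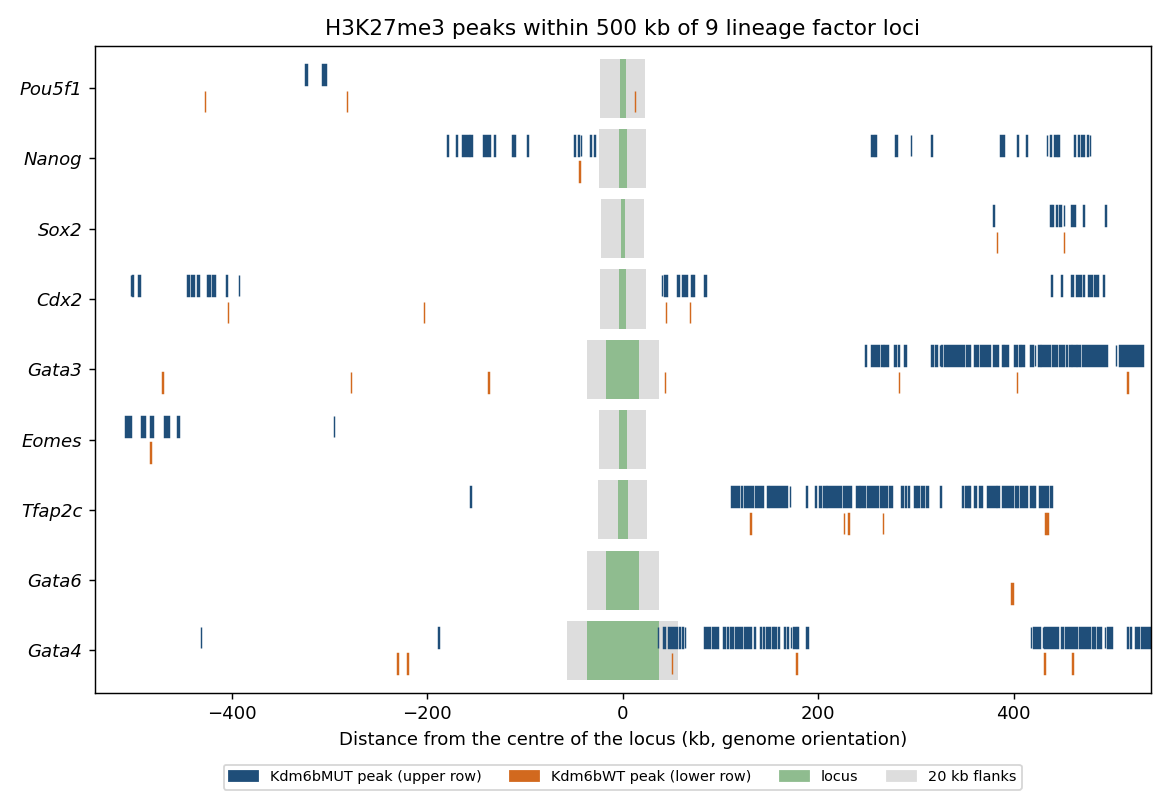
Peaks of the Kdm6bMUT list (blue, upper row) and the Kdm6bWT list (orange, lower row) within 500 kb of each of 9 loci, by distance from the centre of the locus in kb; green marks the locus, grey its 20 kb flanks, and narrow peaks are drawn with a minimum line width. Blue peaks enter the grey and green areas only at Gata4, orange ones at Pou5f1 and Gata4, and Gata6 has no blue peak in the plotted range.

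Pou5f1, a POU factor required for a pluripotent inner cell mass, lay in a long stretch free of Kdm6bMUT peaks. The nearest were 301 kb away on the low-coordinate side (chr17:35337761-35341107, 3347 bases) and 1094 kb away on the high side (chr17:36741830-36742129, 300 bases). The peak-free gap that holds the locus was 1.40 Mb long. Gaps at least this long made up 17.1% of the length of the autosomes and X. The loci are all autosomal, and shares of length in gaps, here and below, were not computed without X. Within 500 kb of the locus there were 2 Kdm6bMUT peaks that covered 0.472%, and 78.1% of 1 Mb tiles were more covered. The Kdm6bWT list nevertheless had a peak 9.80 kb beyond the high-coordinate end of the locus, at chr17:35657803-35658107. It was 305 bases wide with a score of 11 (10 times the −log10 q, as deposited) and a fold enrichment of 3.44 over input. Among all Kdm6bWT peaks 2.34% had a lower fold enrichment and 21.7% a lower score, so it was among the weak peaks of its list. It touched no Kdm6bMUT peak.

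Nanog, a homeobox factor of the epiblast, had its nearest Kdm6bMUT peak just outside the window. That peak, chr6:122631497-122632486, lay 24.5 kb from the locus on the low-coordinate side, where RefSeq order (GRCm38.p6) places Dppa3, a maternal factor gene, as the next protein-coding gene. It was the closest of a run of 5 narrow peaks spread over 21.1 kb, 838 to 1423 bases wide, with fold enrichments between 2.86 and 3.27. On the other side the next Kdm6bMUT peak was 250 kb away. Nanog thus sat at the edge of a 282 kb gap, a common length: gaps at least as long held 54.5% of the autosomes and X. A Kdm6bWT peak of 946 bases lay 39.7 kb away on the same side (chr6:122616349-122617294, fold 4.32), and it touched 1 of the 5 Kdm6bMUT peaks. It was the sole Kdm6bWT peak within 500 kb of Nanog, against 31 Kdm6bMUT peaks.

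Sox2, an HMG-box factor that partners Pou5f1, was far from peaks in both lists. The nearest Kdm6bMUT peaks were 1096 kb away on the low side and 377 kb away on the high side, which leaves a gap of 1.48 Mb (gaps as long held 16.1% of the length). The nearest Kdm6bWT peaks were 1471 and 381 kb away, a gap of 1.86 Mb. Gaps as long held 32.4% of the length in that sparser list. The Kdm6bWT peak at 381 kb, chr3:34932864-34933358, had a fold enrichment of 7.82 and a score of 90, far above the list medians of 3.84 and 13. It began 3.45 kb past the end of the nearest Kdm6bMUT peak on that side (chr3:34928983-34929415) and did not touch it. Within 500 kb of Sox2, 9 Kdm6bMUT peaks covered 1.04% and 2 Kdm6bWT peaks 0.0792%.

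Among the trophectoderm genes, Cdx2 was the closest to Kdm6bMUT peaks. Cdx2, a caudal-type homeobox factor required in trophectoderm, had a peak 36.6 kb away on the high-coordinate side (chr5:148155563-148156136, 574 bases) and 7 peaks within 100 kb, all on that side. The widest of them had 4837 bases and a fold enrichment of 3.44. On the low side, where Pdx1 is the next protein-coding gene in RefSeq order, the nearest Kdm6bMUT peak was 389 kb away. Of the 2 Kdm6bWT peaks within 100 kb, that at 40.4 kb (chr5:148159395-148159750, fold 4.12) lay on a Kdm6bMUT peak of 2857 bases, and that at 65.3 kb (300 bases, fold 3.81) on none. Cdx2 therefore resembled Nanog in layout, with both lists having a peak at the same place between 20 and 50 kb from the locus.

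Gata3 and Tfap2c lay in stretches without Kdm6bMUT peaks, of unlike length, beside densely covered regions. For Gata3, a zinc-finger factor that acts beside Cdx2, no Kdm6bMUT peak lay within 200 kb, yet 25.4% of the bases between 200 and 500 kb away were covered. All 34 Kdm6bMUT peaks within 500 kb lay on the high side, from 230 kb outward, and the widest had 26279 bases. On the low side there was none for 1061 kb, and the gap was 1.33 Mb long (gaps as long held 18.3% of the length). The Kdm6bWT list had 7 peaks within 500 kb of Gata3. Of these, 3 touched a Kdm6bMUT peak, near the 49.5% of the whole Kdm6bWT list that did. The other 4 touched none, among them the nearest at 25.8 kb (chr2:9837838-9838137, 300 bases, fold 3.77).

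Tfap2c, an AP-2 factor of trophectoderm and germ cells, had Kdm6bMUT peaks 150 kb away on the low side and 106 kb away on the high side. The latter was broad, chr2:172490566-172498531 with 7966 bases, wider than 93.3% of the list, and it opened a run of 7 peaks over 60.9 kb. Coverage was 0% within 100 kb, 25.9% between 100 and 200 kb and 20.5% between 200 and 500 kb. The gap that holds Tfap2c was 266 kb long, the shortest of the 8. Its length was common, as gaps at least as long held 55.7% of the autosomes and X. With 42 peaks over 175 kb, the 500 kb on either side of Tfap2c were more covered than those of any other member, and 19.6% of 1 Mb tiles were more covered still. All 6 Kdm6bWT peaks there, the nearest at 126 kb, lay on Kdm6bMUT peaks, as did 49.5% of the whole Kdm6bWT list. With so few peaks the count was not tested.

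Eomes, a T-box factor of trophectoderm and later mesoderm, was remote from peaks in both lists. The nearest Kdm6bMUT peaks were 291 and 566 kb away, and the nearest Kdm6bWT peaks 479 and 1055 kb away. Its Kdm6bMUT gap was 866 kb long, and gaps of that length or more made up 29.1% of the autosomes and X. Its Kdm6bWT gap was 1.54 Mb long, and gaps as long made up 39.8% in that sparser list. Within 500 kb of Eomes 6 Kdm6bMUT peaks covered 1.67%, and the sole Kdm6bWT peak there (449 bases) touched 1 of them.

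**Figure D2:**
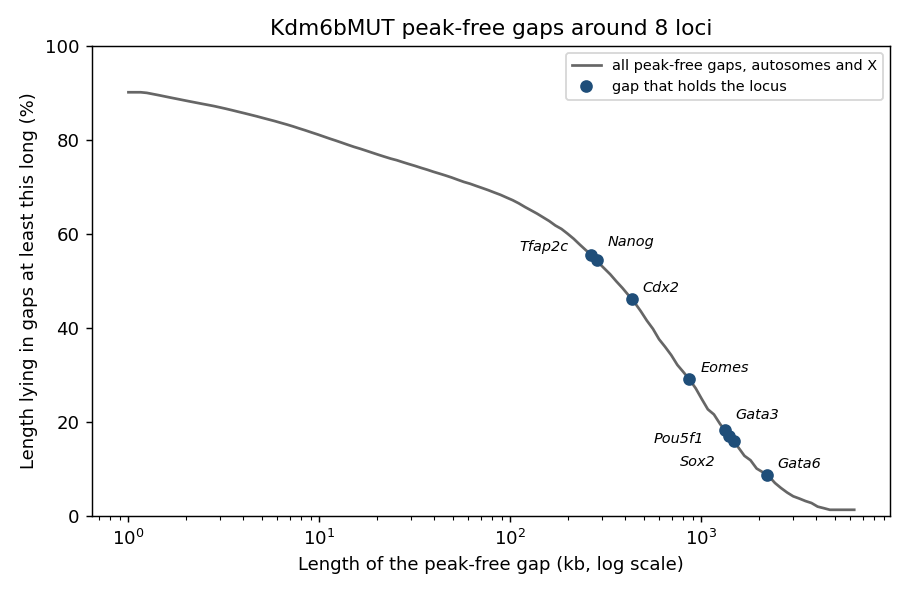
Share of the length of the autosomes and X that lies in Kdm6bMUT peak-free gaps at least as long as the value on the log-scaled horizontal axis (grey line, kb), with the gaps that hold 8 loci as points; Gata4 has a peak inside and no gap. Gata6 sits farthest right at 2192 kb and Tfap2c farthest left at 266 kb.

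The primitive endoderm genes stood at opposite ends of the set by distance to the nearest Kdm6bMUT peak. Gata6, which marks the earliest primitive endoderm precursors, was the only member with no Kdm6bMUT peak within 500 kb. Its nearest peaks were 1547 kb away on the low side and 611 kb away on the high side of chromosome 18. The gap of 2.19 Mb was the longest of the 8, and 70 of the 90091 gaps of the Kdm6bMUT list, holding 8.79% of the length, were as long. Of 1 Mb tiles, 10.2% had no Kdm6bMUT peak. A single Kdm6bWT peak, 1282 bases wide with a fold enrichment of 3.39, lay 381 kb from Gata6.

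Gata4, expressed after Gata6 in primitive endoderm and later in heart and gonad, was the only member with Kdm6bMUT peaks within 20 kb, and all of them were at or beyond its high-coordinate end. The first, chr14:63889772-63890568, lay inside the locus between 1.23 and 0.432 kb from that end. It was 797 bases wide with a fold enrichment of 2.92, a score of 15 and a −log10 p of 3.28. The second, chr14:63895357-63897041, began 4.36 kb beyond the end and had 1685 bases with a fold of 2.85. The fold of the first lay between the quartiles of the list, 2.87 and 3.29, and that of the second below them. The third, chr14:63900002-63909082, lay farther out and was 9081 bases wide, wider than 94.8% of the list, with a fold of 3.13 and a −log10 p of 3.74. The rest of the locus, and its low side for 151 kb, had no Kdm6bMUT peak. RefSeq lists no start for Gata4 in the promoter table used, so the peak inside the locus was not assigned to a start site.

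These 3 peaks belong to a run of 6 that extends from 63889772 to 63917909, 28.1 kb in all, joined across gaps under 10 kb. Peaks filled 48.7% of the run, with fold enrichments of 2.85 to 3.27. Coverage continued outward, with 30.4% of the bases between 50 and 100 kb covered. The highest fold in that ring, 3.96, belonged to a narrow peak of 814 bases (chr14:63988628-63989441), and the widest peak there, of 7577 bases, had 3.38. The lowest fold, 2.64, also belonged to a narrow peak, of 988 bases, and peaks of 2550 to 6873 bases had 3.19 to 3.59. A relation of fold to width was not tested. Within 200 kb of Gata4 25 Kdm6bMUT peaks lay on the high side, where Blk is the next protein-coding gene in RefSeq order, and 1 on the low side, toward Neil2. The window as a whole was covered to 10.1%, and 26.3% of tiles of the same width were more covered. Gata4 thus lay at the border of a covered region and was not itself spanned by it: 1.08% of the locus was covered.

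In Kdm6bWT-injected morulae the same Gata4 window held 1 peak, chr14:63904094-63904393, of 300 bases. It lay inside the 9081-base Kdm6bMUT peak, 13.1 kb from the locus. Its fold of 4.04 and score of 14 were near the middle of its list. No Kdm6bWT peak was narrower, but widths near this were common, with a lower quartile of 304 bases in the list. The covered length in the window was 11563 bases in the Kdm6bMUT list and 300 bases in the Kdm6bWT list. Over the whole lists Kdm6bMUT peaks covered 71.0 times as many bases as Kdm6bWT peaks. The other 5 peaks of the run had no Kdm6bWT counterpart, as was usual: 2.66% of all Kdm6bMUT peaks touched a Kdm6bWT peak. The lists reach down to different limits, with a lowest −log10 p of 2.41 for Kdm6bMUT and 3.67 for Kdm6bWT. The Kdm6bMUT peaks inside the locus and 4.36 kb beyond it had 3.28 and 3.20, below the lowest value in the Kdm6bWT list. Such values depend on depth, which is unknown, so peak strength was not compared between the lists. With Kdm6bMUT peaks held to at least 3.67, the peak of 9081 bases alone was left in the window. A loss of the mark at the other peaks was not tested.

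**Figure D3:**
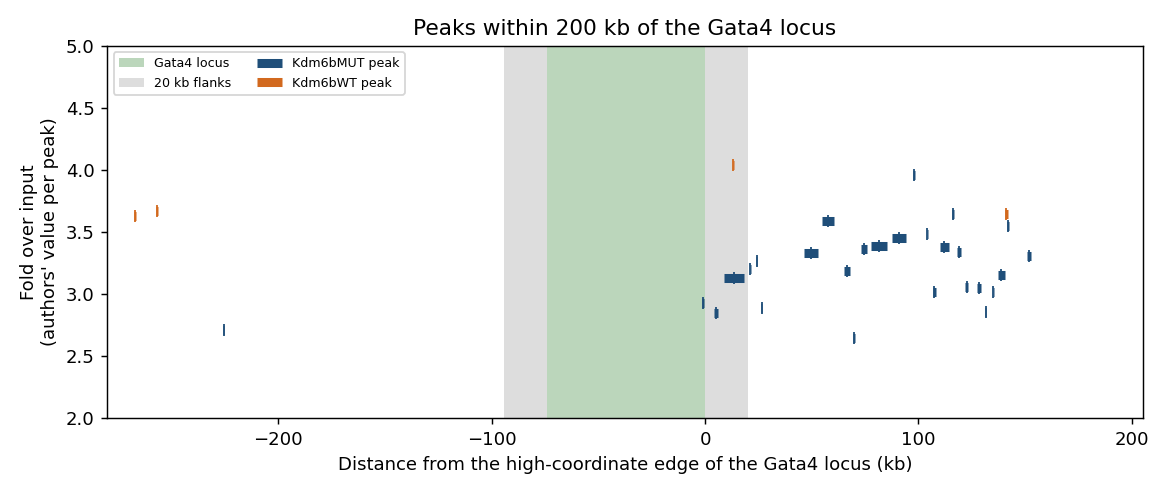
Peaks within 200 kb of the Gata4 locus (green; grey, 20 kb flanks) by distance from the high-coordinate edge of the locus in kb, drawn at the fold enrichment over input that the authors deposited, an axis that starts at 2; thin vertical ticks mark peak centres. Blue Kdm6bMUT peaks crowd to the right of the edge, 25 against 1 on the low side, and orange Kdm6bWT peaks number 2 on each side; fold values are not comparable between the lists.

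Within 500 kb, windows included, the median neighbourhood of the 9 loci was about as covered by Kdm6bMUT peaks as the median 1 Mb tile, with a wide spread. A Kdm6bMUT peak lay within 500 kb of 8 of the 9 loci and a Kdm6bWT peak within 500 kb of 9, and 89.8% and 72.2% of 1 Mb tiles were touched. Within 500 kb the Kdm6bMUT coverage ranged from 0% (Gata6) to 17.3% (Tfap2c), with a median of 5.00% against 5.22% over 1 Mb tiles. By lineage it was 0.472% to 5.00% for the epiblast genes, 1.67% to 17.3% for the trophectoderm genes, and 0% and 12.9% for Gata6 and Gata4. These ranges overlap. In the Kdm6bWT list the median was 0.124% against 0.0790% over tiles, with Gata4 (0.432%) and Tfap2c (0.411%) the highest and Eomes (0.0445%) the lowest.

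In the Kdm6bMUT list mean coverage was lowest inside the loci and highest in the outermost ring. Averaged over the 9 loci, Kdm6bMUT peaks covered 0.120% of the locus, 2.99% within 20 kb, 2.62% between 20 and 50 kb, 4.70% between 50 and 100 kb, 5.12% between 100 and 200 kb and 8.12% between 200 and 500 kb. The 2 innermost values come from Gata4 alone, and without it they are 0%. The 6 loci with no Kdm6bMUT peak within 100 kb were Pou5f1, Sox2, Gata3, Eomes, Tfap2c and Gata6, and Tfap2c alone of them had peaks within 200 kb. The spread between loci was wide in every ring, and no ring was tested. In the Kdm6bWT list the means were 0% in the locus and between 0.0333% and 0.297% in the rings, the highest between 20 and 50 kb, each resting on a few peaks.

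**Figure D4:**
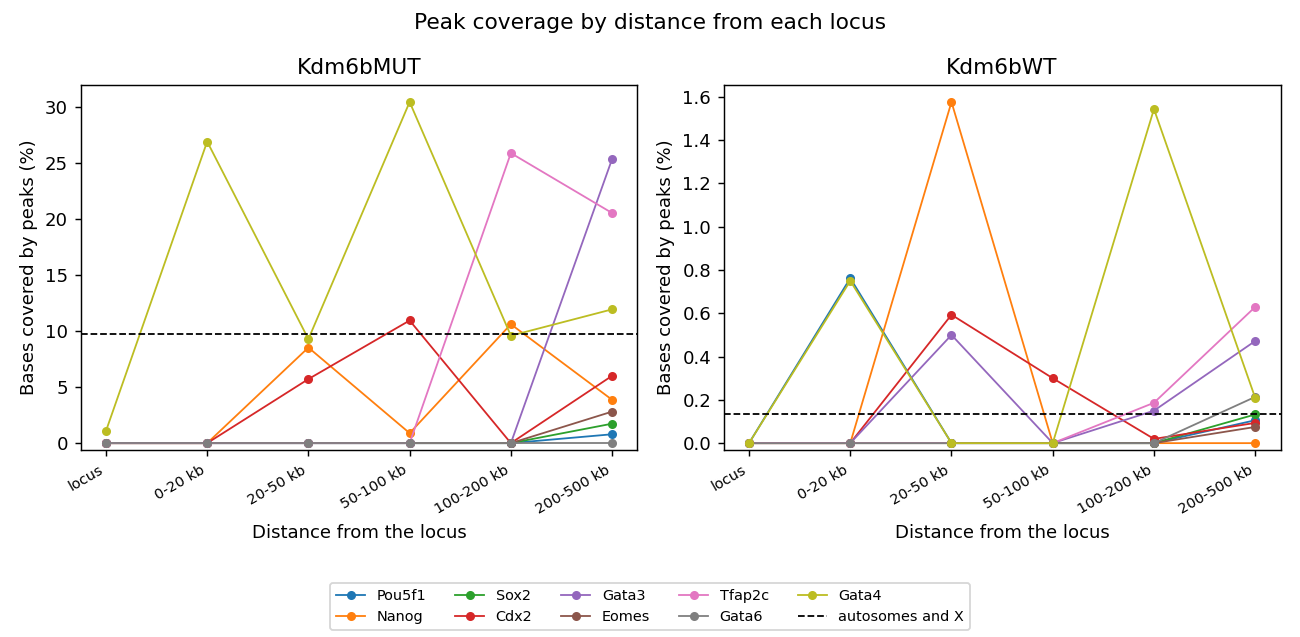
Percent of bases covered by Kdm6bMUT peaks (left) and Kdm6bWT peaks (right) in the locus and in rings from 0-20 to 200-500 kb around it, 1 line per locus, with the mean over autosomes and X dashed; the vertical scales differ. On the left all loci but Gata4 are at 0 up to 20 kb, and Gata3 reaches 25.4% in the outermost ring.

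Where Kdm6bWT peaks lay near the loci, about as many were on Kdm6bMUT peaks as in the list as a whole. Within 50 kb there were 5 Kdm6bWT peaks at 5 of the 9 loci (55.6%, exact interval 21.2% to 86.3%), and 16.6% of tiles of 108 kb, the median width of such windows, were touched by a Kdm6bWT peak. Within 100 kb the count was again 5 of 9, with 28.1% of tiles of 208 kb touched. Kdm6bMUT peaks lay within 50 kb of 3 of 9 loci (33.3%, 7.49% to 70.1%) and within 100 kb of 3, against 48.5% and 59.5% of the same tiles. Of these 4 counts, the exact interval left out the tile share for the Kdm6bWT list at 50 kb alone, and at 20 kb it did not. That count rests on 5 peaks of 1 library, and the genes were chosen with earlier results known. No conclusion is drawn from it, and the windows of Gata3, Gata6 and Gata4 were wider than the tiles. The Kdm6bWT peaks within 50 kb at Nanog, Cdx2 and Gata4 lay on Kdm6bMUT peaks, and these are the 3 loci that had any Kdm6bMUT peak within 50 kb. Those at Pou5f1 and Gata3 lay near loci with no Kdm6bMUT peak within 200 kb. Within 500 kb 16 of 31 Kdm6bWT peaks (51.6%, exact interval 33.1% to 69.8%) touched a Kdm6bMUT peak, against 49.5% of the list. In the other direction 14 of 194 Kdm6bMUT peaks (7.22%, 4.00% to 11.8%) touched a Kdm6bWT peak, against 2.66% of the list. Neighbouring peaks are not independent, and the intervals cover counting error alone. Covered bases within 500 kb were 33.4 times as many in the Kdm6bMUT as in the Kdm6bWT list, and 71.0 times over the whole lists. By locus the covered lengths were 138 kb and 4.64 kb at Gata4, 175 kb and 4.15 kb at Tfap2c, and 152 kb and 3.43 kb at Gata3. At Gata6 the order was the opposite, with 0 and 1.28 kb.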

How the data were processed

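Peaks of H3K27me3 in 1 Kdm6bMUT and 1 Kdm6bWT morula ChIP library were read as deposited by the authors, in mm9; positions are given counted from 1. Bowtie2 2.2.2, MACS2 and mm9 are named in the submitters' processing notes without roles, and no source used here gives the caller's settings. The fold enrichment, a ratio of ChIP to input, the −log10 p and −log10 q, and a score are per peak and were deposited by the authors. Peaks were ranked by them within a list only. Limits of 3.67 for −log10 p and 13 for the score, both taken from the Kdm6bWT list, were also applied to the Kdm6bMUT list. The score is the −log10 q multiplied by 10 and cut to a whole number in 99.998% (Kdm6bMUT) and 100% (Kdm6bWT) of peaks. No read counts were used, so depth is unknown.

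The interval of each locus came with the choice of the 9 genes, which was made, like the lineage groups, with earlier results of these data known. The intervals were set beside RefSeq gene lengths (GRCm38.p6): Tfap2c is 2.95 kb shorter than its RefSeq span, which stays within the flanks in length, and the others differ by 0.0530 to 3.12 kb. All 9 genes are named whatever their values. Peaks touched a window with at least 1 base. Background tiles did not overlap and ran from the first to the last peak of each of 19 autosomes and X, unsequenced stretches included. No mm9 gene annotation was used, so other genes of these lineages were not placed. Python 3.11.15, numpy 2.4.6, pandas 2.3.3, scipy 1.17.1 and matplotlib 3.10.9 were used, and the tile code was tested on simulated data. Alternatives changed the flank, the peak limits, the joining of peaks and the tiles. RNA-seq samples of the series were not used here.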

Additional observations from a re-analysis of the deposited data

How the results depend on the processing

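No paired analysis was possible because a single ChIP library stood for each injection. Of 62 values under alternative settings, 28 stayed within 1.5 times the reported one (shares: within its 95% exact interval) and 34 did not; wider flanks add sequence and stricter limits remove peaks by construction. Gata4 was the sole locus with a Kdm6bMUT peak with no flank, 5 kb or 20 kb. At 20 kb this also held under every peak limit and with joined peaks. The peak inside the locus, of 797 bases with a −log10 p of 3.28, itself failed the limits of 1 kb and 3.67. With flanks of 50 and 100 kb, Kdm6bMUT peaks were found at 3 and 3 loci, with 14 and 27 peaks over 25685 and 67971 bases. Kdm6bWT peaks were then found at 5 and 5 loci, with 5 and 6 peaks over 2207 and 2507 bases. Of tiles of 108 and 208 kb, the median widths of those windows, 48.5% and 59.5% were touched by a Kdm6bMUT peak and 16.6% and 28.1% by a Kdm6bWT peak. With no flank 1 Kdm6bMUT peak of 797 bases was left, and with 5 kb the Kdm6bMUT peaks covered 1441 bases; the Kdm6bWT list then had 0 loci, 0 peaks and 0 bases at either flank. At the lowest −log10 p of the Kdm6bWT list (3.67) 1 Kdm6bMUT peak was left. Joining peaks less than 5 kb apart gave 1 Kdm6bMUT peak over 21229 bases. A score of at least 13, the Kdm6bWT median, left 1 locus and 1 Kdm6bWT peak of 300 bases, so that the Pou5f1 peak was lost, and a width of at least 1 kb left 0 loci, 0 peaks and 0 bases in that list. The share of tiles touched was 40.3% (Kdm6bMUT) and 10.1% (Kdm6bWT) with tiles as wide as each window, and 40.3% and 8.87% on autosomes alone. Counts at the locus ends (1, 2 or 5 kb) were 1 and 0 throughout. Depth, which sets how weak a peak can be called, is unknown for both libraries.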
